A study of Mus musculus with 2 samples.

Results

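The POU genes of class III (Pou3f1, Pou3f2, Pou3f3 and Pou3f4) and of class IV (Pou4f1, Pou4f2 and Pou4f3) were examined for H3K27me3 in primary chondrocytes. The members were fixed by symbol, and their peaks were all lines of the deposited annotation that carried one of these symbols. Of the 7 genes, 5 had a peak within 5 kb, and these 5 were joined to 10 of the 19359 peaks of the series. The cells were wild-type chondrocytes from the rib cartilage of newborn CD1 mice, released with collagenase and cultured overnight. H3K27me3, histone H3 trimethylated at lysine 27, is the mark that Polycomb repressive complex 2 (PRC2) leaves on silenced chromatin. The series held 1 H3K27me3 ChIP library with 17237574 filtered tags and 1 input library with 17004082, and peaks were regions where ChIP exceeded input. No value therefore has a replicate error, no test between samples was possible, and all comparisons below are descriptions of this peak list. The libraries were grouped by their titles, and the antibody tags in the labels are the reverse of these titles. Were the tags right and the titles wrong, the files called ChIP and input here would be exchanged and each fold enrichment would be of input over ChIP. In the peak list, 24 of 29 neural genes linked to the members and 0 of 10 chondrocyte genes had a peak within 5 kb. The share of protein-coding genes was 20.7%. The linked genes were listed with earlier results of these data known, and 10 chondrocyte genes are few against that share. Which of the labels is right was therefore not tested by these counts. Of the loci that the study also assayed by H3K27me3 ChIP with PCR, only Cdkn2a, Lef1 and Wnt10a were looked up. This was done after the other values were seen. Each of these genes had peaks here, the widest of 29.5 kb at Cdkn2a, 8.70 kb at Lef1 and 32.6 kb at Wnt10a. The other loci it assayed, Fzd3, Fzd6, Lrp4, Lrp5, Tgfbr1 and Tgfbr2, were not looked up. The 10 genes of the chondrocyte programme (Col2a1, Acan, Sox9, Matn1, Comp, Col9a1, Col11a2, Hapln1, Chad and Cnmd) lay 31.2 to 2127 kb from their nearest peaks. Their count is too small to check the labelled cell type, RNA was not measured, and the number of animals is not given in the labels.

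POU proteins are transcription factors that bind DNA through a POU-specific domain and a POU homeodomain joined by a linker. Class III genes are intronless and act mainly in the developing nervous system and in glia, and class IV genes are regulators of sensory neurons, retinal ganglion cells and hair cells. Neither class is known as part of the cartilage programme, and developmental regulators of other lineages are typical targets of PRC2. RNA was not measured in this series, so the peaks say nothing about the expression of these genes.

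The sequences before gene starts are shown because 4 of the 5 marked genes had peaks on both sides of the start and none over it, and whether sequence relates to the peaks was not tested. The 250 bases before the start were read from the RefSeq promoters of GRCm38.p6, the assembly also called mm10, which the submitters' processing notes name. Promoters were matched for 5 of the 7 genes, and Pou3f1 and Pou4f3 had no entry. The start is that of the transcript in the promoter table, and at Pou4f1 another RefSeq transcript begins further out, so that 119 of its 250 bases lie inside the RefSeq gene and its sequence is not printed. The other 4 are shown 5′ to 3′ on the strand of the gene with every CG dinucleotide in capitals, first the 2 that lie in the gap between peaks of a marked gene and then the 2 of the genes without a peak. The intervals were chr4:22488367-22488616 (minus strand) for Pou3f2, chr14:104468000-104468249 (minus) for Pou4f1, chr8:78436648-78436897 (minus) for Pou4f2, chr1:42695518-42695767 (plus) for Pou3f3 and chrX:110814129-110814378 (plus) for Pou3f4.
Pou3f2: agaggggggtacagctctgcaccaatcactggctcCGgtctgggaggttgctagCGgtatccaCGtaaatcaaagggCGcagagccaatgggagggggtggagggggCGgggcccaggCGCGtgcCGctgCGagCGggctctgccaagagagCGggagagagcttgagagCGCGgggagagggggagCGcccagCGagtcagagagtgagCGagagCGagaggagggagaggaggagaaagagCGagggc
Pou4f2: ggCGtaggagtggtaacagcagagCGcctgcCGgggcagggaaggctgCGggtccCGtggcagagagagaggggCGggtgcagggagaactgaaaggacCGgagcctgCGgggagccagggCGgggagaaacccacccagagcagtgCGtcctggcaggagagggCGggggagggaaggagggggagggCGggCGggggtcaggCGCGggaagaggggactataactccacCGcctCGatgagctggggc
Pou3f3: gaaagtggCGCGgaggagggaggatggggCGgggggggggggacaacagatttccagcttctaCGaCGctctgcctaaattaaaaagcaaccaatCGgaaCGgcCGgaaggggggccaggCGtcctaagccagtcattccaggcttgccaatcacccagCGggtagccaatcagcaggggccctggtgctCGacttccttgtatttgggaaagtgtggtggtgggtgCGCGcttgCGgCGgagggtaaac
Pou3f4: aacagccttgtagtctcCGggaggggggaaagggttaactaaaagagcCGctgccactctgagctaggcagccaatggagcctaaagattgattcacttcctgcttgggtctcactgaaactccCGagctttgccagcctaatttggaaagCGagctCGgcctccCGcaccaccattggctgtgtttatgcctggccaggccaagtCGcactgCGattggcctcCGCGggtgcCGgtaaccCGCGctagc
None of these 5 intervals overlapped a peak by any base.

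H3K27me3 was found at 2 of the 4 class III genes and at all 3 class IV genes. A peak within 5 kb was listed for 20.7% of the 21887 protein-coding genes, and for 19.8% of the 3858 genes in the length range of the members (1497 to 6444 bp). A peak over the gene body was listed for 5 of the 7 members and for 14.2% of protein-coding genes. Among marked genes alone, these were 5 of 5 members and 3111 of 4535 protein-coding genes. The summed peak length was 34.4 kb at Pou4f3, 23.4 kb at Pou4f2 and 21.9 kb at Pou4f1, followed by 17.1 kb at Pou3f1 and 14.6 kb at Pou3f2. Every marked class IV gene thus carried more peak length than either marked class III gene. The median over the 4535 marked protein-coding genes was 3.75 kb, and between 86.1% (Pou3f2) and 96.8% (Pou4f3) of them had less than the member. In all, the 5 class III peaks covered 31.7 kb and the 5 class IV peaks covered 79.7 kb. The classes differed in width and little in height. The length-weighted pileup, here the ChIP fragments per base averaged across peaks, was 12.22 in class III and 12.38 in class IV. The length-weighted fold enrichment over input was 3.44 and 3.47. With 1 library, no error can be set against these differences. With peaks of 3.5-fold or more, class III kept 21.5 kb and class IV 28.7 kb, so that the classes lay closer together, and Pou4f3 had no peak. With peaks over the gene body, class III kept 16.2 kb and class IV 63.1 kb.

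**Figure D1:**
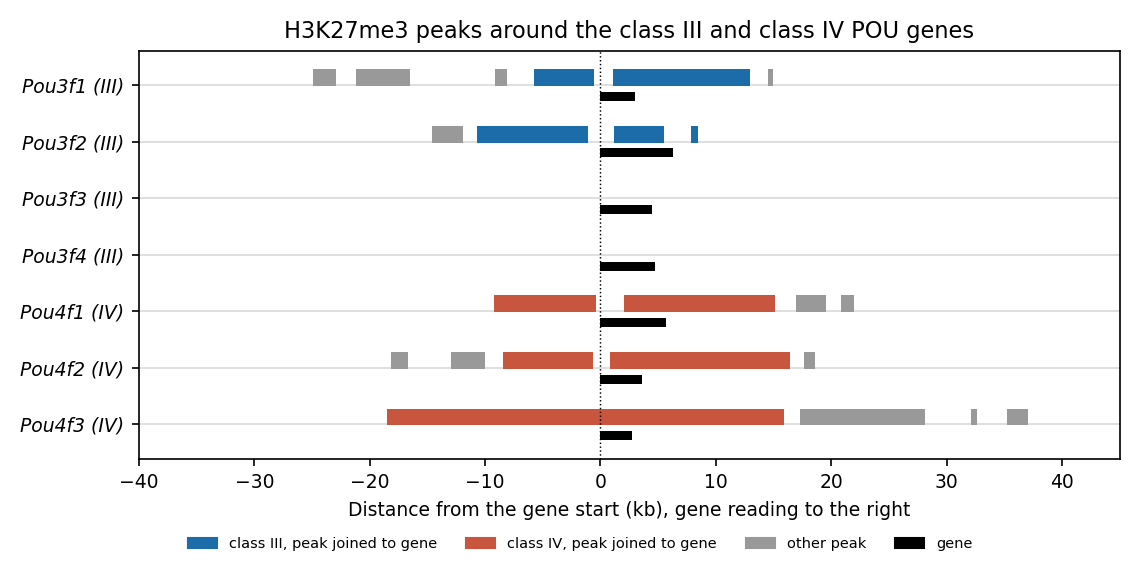
Peaks around the gene starts, with distance from the start in kb on the horizontal axis and each gene read to the right. Coloured boxes are peaks joined to the gene (blue class III, red class IV), grey boxes are other peaks and black bars are the genes. The start (dotted line) lies in a gap between peaks at Pou3f1, Pou3f2, Pou4f1 and Pou4f2, under a 34.4 kb peak at Pou4f3, and far from any peak at Pou3f3 and Pou3f4.

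Pou3f1 encodes Oct-6 (also SCIP), a regulator of myelination in Schwann cells. The gene (chromosome 4, 124657647 to 124660655, plus strand) had 2 peaks. The peak before the start (124651858 to 124657127) was 5.27 kb wide, with a pileup of 11.86, a 3.37-fold enrichment and a q-value of 0.0162. The peak that began 1105 bp inside the gene and ran past its end (124658752 to 124670594) was 11.8 kb wide, with a pileup of 12.93, a 3.52-fold enrichment and a q-value of 0.00685. The second was thus wider and higher, and the 2 peaks left 1624 bp around the start without a call. Peaks covered 63.3% of the gene. Pou3f1 also had the most peaks in its surroundings, with 12 within 100 kb: 10 lay upstream, 1 over the gene and 1 beyond it.

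Pou3f2 encodes Brn-2, a factor of hypothalamic and upper-layer cortical neurons. The gene (chromosome 4, 22482096 to 22488366, minus strand) had 3 peaks. The peak before the start (22489412 to 22499062) was 9.65 kb wide, with a pileup of 12.33, a 3.52-fold enrichment and a q-value of 0.00829. The peak inside the gene (22482864 to 22487172) was 4.31 kb wide, with a pileup of 10.75, a 3.18-fold enrichment and a q-value of 0.0410. The last peak, 0.613 kb wide and beyond the 3′ end (22479902 to 22480514), had a pileup of 10.37 and a fold enrichment of 3.10. Its mean q-value of 0.0597 was the only one above 0.05 among the 10 peaks. At Pou3f2 the wider and higher peak stood before the start, which is the reverse of the order at Pou3f1. The gap at the start was 2239 bp wide.

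Pou3f3 encodes Brn-1, which acts beside Brn-2 in the cortex and also in the kidney, and Pou3f4 encodes Brn-4 of the inner ear and neural tube. Neither gene had a peak within 5 kb. Pou3f3 (GRCm38 chromosome 1, 42695768 to 42700210) lay 143 kb from the nearest peak (42842886 to 42845142, 3.51-fold), which was joined to no gene symbol. On the other side the nearest peak was 1418 kb away. The median distance over 17096 unmarked protein-coding genes was 117 kb, so that Pou3f3 was neither close to nor unusually far from a peak. On chromosome 1, 23.5% of protein-coding genes were marked.

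Pou3f4 (chromosome X, 110814379 to 110819108) lay 3138 kb from the nearest peak, a peak at Tbx22, and 22863 kb from the nearest on the other side. Of all unmarked genes with a distance, 98.1% were closer to a peak, and of those on the X chromosome 80.4% were. The X chromosome held 138 peaks in all, 0 of them of 10 kb or more, and 5.90% of its protein-coding genes were marked. The absence at Pou3f4 therefore cannot be told apart from the low peak number of its chromosome. The lowest pileup of any peak was 9.86, and a weaker mark at Pou3f3 or Pou3f4 would not have been detectable at this depth.

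Pou4f1 encodes Brn3a, a factor of dorsal root and trigeminal sensory neurons. The gene (chromosome 14, 104462321 to 104467991, minus strand) had 2 peaks. The peak before the start (104468394 to 104477202) was 8.81 kb wide, with a pileup of 11.72, a 3.34-fold enrichment and a q-value of 0.0192. The peak over the 3′ part of the gene (104452850 to 104465958) was 13.1 kb wide, with a pileup of 12.44, a 3.55-fold enrichment and a q-value of 0.00778. As at Pou3f1, the peak on the side of the gene body was the wider and the higher. The gap between them, 2435 bp, was the widest of the 4 gaps at a start, and most of it lay inside the gene. The peak before the start ended 333 bp from the 3′ end of Rnf219 (104477535 to 104522666, minus strand), the only other gene that the annotation joined to a peak of a member. Rnf219 had no peak of its own.

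Pou4f2 encodes Brn3b, which is required for retinal ganglion cells. The gene (chromosome 8, 78433010 to 78436645, minus strand) had 2 peaks. The peak before the start (78437302 to 78445091) was 7.79 kb wide, with a pileup of 11.87, a 3.36-fold enrichment and a q-value of 0.0165. The peak over the gene and beyond its 3′ end (78420235 to 78435827) was 15.6 kb wide, with a pileup of 13.07, a 3.63-fold enrichment and a q-value of 0.00492. These last values were the highest pileup, the highest fold enrichment and the lowest q-value among the 10 peaks. The gap at the start was 1474 bp wide, the narrowest of the 4.

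Pou4f3 encodes Brn3c, which hair cells of the inner ear require. The gene (chromosome 18, 42394540 to 42397249, plus strand) lay whole under 1 peak (42376005 to 42410432). This peak was 34.4 kb wide, with a pileup of 12.33, a 3.44-fold enrichment and a q-value of 0.0111. It ran from -18535 to 15892 bp relative to the start, and 99.8% of all peaks were narrower. Its fold enrichment was below that of the best peak of each of the other 4 marked genes. Pou4f3 was thus first by length and last by the best fold enrichment.

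**Figure D2:**
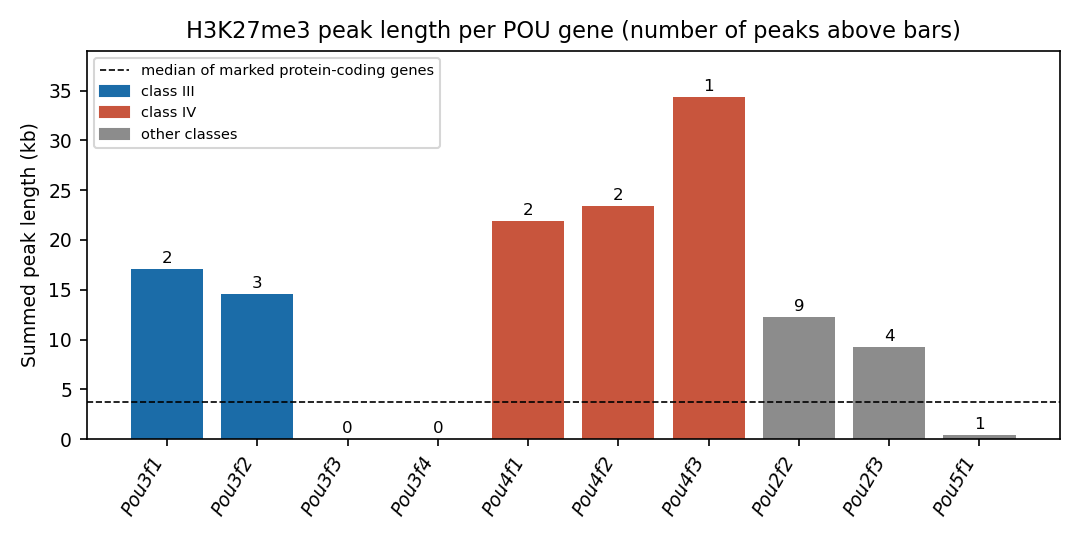
Summed length in kb of the peaks joined to each class III and class IV gene and to the 3 marked genes of other POU classes, with the number of peaks above each bar (blue class III, red class IV, grey other classes). The dashed line is the median of marked protein-coding genes, 3.75 kb. The 5 marked members stand between 14.6 and 34.4 kb, above Pou2f2 at 12.3 kb, the longest of the other POU genes.

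The peaks of the members were wide for this list. Of the 10 peaks, 4 were 10 kb or wider, against 3.46% of all peaks, and these stood at Pou3f1, Pou4f1, Pou4f2 and Pou4f3. By gene, 4 of the 7 members had such a peak, against 2.63% of protein-coding genes. The median width was 9.23 kb, against 1270 bp over all peaks, and 9 of the 10 were wider than that median. The fold enrichment ran from 3.10 to 3.63 with a median of 3.40, against 3.16 over all peaks. It was at least 3.5 in 4 peaks, 1 each at Pou3f1, Pou3f2, Pou4f1 and Pou4f2, against 9.56% of all peaks and 5.35% of protein-coding genes. The same 4 peaks were those whose mean q-value was 0.01 or lower, which 11.0% of all peaks and 5.90% of protein-coding genes reached. The pileup ran from 10.37 to 13.07, and 8 of the 10 peaks were above the median of 11.04. The input background that the pileup and the fold enrichment imply was 2.67 to 2.95 fragments at these peaks, against a median of 2.75 over all peaks. The lowest value over all peaks was also 2.67, so that this measure cannot show a low local background.

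**Figure D3:**
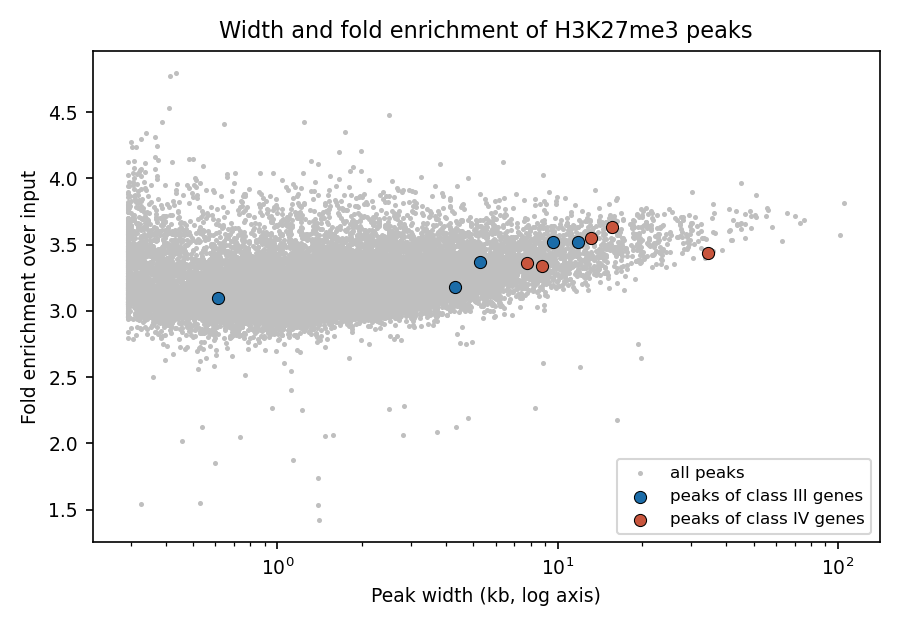
Width in kb on a log axis and fold enrichment over input for all 19359 peaks (grey), with the 5 peaks of class III genes in blue and the 5 of class IV genes in red. The 4 peaks of 10 kb or more lie between 3.44 and 3.63, and the 34.4 kb peak of Pou4f3 at 3.44 is below the next widest of the class.

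The start of the gene was uncovered at 4 of the 5 marked genes, with a peak on each side. At Pou3f1 the nearest peak edges lay 520 bp before and 1105 bp after the start. At Pou3f2 the distances were 1046 and 1194 bp, at Pou4f1 403 and 2033 bp, and at Pou4f2 657 and 818 bp. The upstream peak was thus the nearer at each of the 4 genes. Over all protein-coding genes, 3.63% had an uncovered start with a peak within 5 kb on each side, and 4.45% had a covered start. Such a gap needs 2 peaks. Among the 2351 marked genes with 2 or more peaks, the start lay between peaks in 33.8% and was covered in 26.9%, whereas it lay between peaks in all 4 such members. Over the 794 genes of this kind the median gap was 2176 bp, with quartiles of 1554 and 3440 bp, and the gaps of the members were 1474 to 2435 bp. With peaks of 3.5-fold or more, 0 members had a peak on each side, since 1 peak was left at each of these 4 genes.

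Uncalled stretches of this size were not limited to starts. When peaks with gaps of at most 5 kb were joined, each marked gene fell into 1 domain, and the 5 domains held 16 gaps. The 12 gaps that held no start of a member were 1234 to 3994 bp wide. The gap at the start was the widest of its domain at Pou4f1, and at Pou3f1, Pou3f2 and Pou4f2 another gap was wider. The median over all 8589 gaps within domains was 1952 bp. The smallest gap between any 2 peaks was 1177 bp, so narrower interruptions are not visible in the list. The pileup within the gaps was not among the values used here, and the level of H3K27me3 at these starts was thus not measured.

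The domains reached well beyond the genes. They spanned 55.6 kb at Pou4f3, 36.8 kb at Pou4f2, 31.1 kb at Pou4f1, 24.1 kb at Pou3f1 and 23.1 kb at Pou3f2. The order of the genes was that of their summed peak lengths, which is largely built in because the domains hold the same peaks. Peaks covered between 74.7% (Pou3f2) and 85.7% (Pou4f3) of the span. The median domain spanned 2.06 kb, and 6.49% of the 10770 domains spanned 20 kb or more, as all 5 domains of the members did. Between 1 and 3 peaks of each domain lay more than 5 kb from the gene and were joined to no member. The largest was a peak of 10834 bp after the main peak of Pou4f3, with a fold enrichment of 3.52. At Pou3f1, Pou4f1 and Pou4f3 the domain reached further downstream of the start than upstream (14.9 against 9.14 kb, 21.9 against 9.21 kb and 37.1 against 18.5 kb). At Pou3f2 it reached further upstream (14.6 against 8.46 kb), and at Pou4f2 both sides were nearly equal (18.1 kb upstream and 18.6 kb downstream).

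Each of the 5 promoters held more CG dinucleotides than the median promoter. This sequence marks CpG islands, where PRC2 commonly binds in mammals. The 250 bases held 47 CG dinucleotides at Pou4f1, 18 at Pou3f2, 17 at Pou4f2, 15 at Pou3f3 and 13 at Pou3f4. The median over 32851 RefSeq promoters was 6, and 99.8% of them had fewer than Pou4f1 and 68.5% fewer than Pou3f4. The GC content was 78.0% at Pou4f1, 70.8% at Pou4f2, 66.8% at Pou3f2, 60.8% at Pou3f3 and 58.0% at Pou3f4. The 3 genes with peaks thus had more CG dinucleotides and a higher GC content than the 2 without. The ratio of observed CG dinucleotides to the number implied by the C and G content did not separate them. It was 1.24 at Pou4f1, 0.76 at Pou3f2 and 0.64 at Pou4f2, against 0.69 at Pou3f3 and 0.62 at Pou3f4. These values describe 5 sequences, and no difference was tested.

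**Figure D4:**
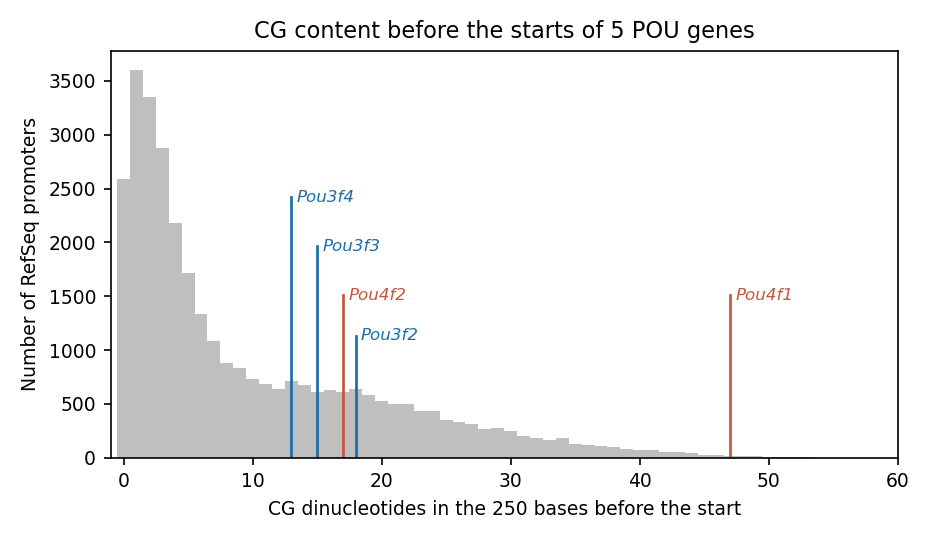
CG dinucleotides in the 250 bases before the start, for all 32851 RefSeq promoters (grey histogram) and for 5 POU genes (blue class III, red class IV; the height of a line has no meaning). Pou4f1 with 47 stands apart, and the other 4 genes lie between 13 and 18.

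Short motifs were counted in these 5 sequences, a description chosen after other values were seen. The motif CCAAT was found on either strand 2 times at Pou3f2, 3 times at Pou3f3 and 3 times at Pou3f4, and 0 times at Pou4f1 and Pou4f2. It is present in 33.8% of all promoters of this length. The motif TATAA was found 1 time each at Pou4f1 and Pou4f2 and 0 times in the class III sequences, against 22.8% of all promoters. The match lay at the end of the interval far from the start at Pou4f1, and close to the start at Pou4f2. The GC box GGGCGG was found 5 times at Pou4f2, 2 times at Pou4f1, 1 time each at Pou3f2 and Pou3f3 and 0 times at Pou3f4, against 32.7% of promoters. No match overlapped one of another motif, but both GC box matches at Pou4f1 shared bases with each other, as did a pair at Pou4f2.

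Of the 8 other POU genes, 3 (37.5%) were marked, against 20.7% of all protein-coding genes. None of the 8 had a peak of 10 kb or more or a fold enrichment of 3.5 or more, and with 2.63% and 5.35% of all genes having one, 0 of 8 is near the background. Pou2f2, which encodes the lymphoid factor Oct-2, had 9 peaks with a summed length of 12.3 kb in a gene record of 68.0 kb, and the widest was 4.42 kb. Pou2f3, a factor of epidermis and chemosensory tuft cells, had 4 peaks and 9.27 kb in a record of 87.7 kb. Pou5f1, the pluripotency factor Oct4, had 1 peak of 0.403 kb with a q-value of 0.0532. Pou2f2 thus had more peaks than any member, but they were short and covered 17.0% of the gene, against 63.3 to 100% at the marked members. The records of the marked members were only 2.71 to 6.27 kb long. In bases, peaks covered 11562 bp of Pou2f2, against 1904 to 4309 bp of these members. Those without a peak included the ubiquitous Pou2f1, 28.9 kb from the nearest peak, and the pituitary factor Pou1f1, 282 kb from it.

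The genes linked to the members in the nervous system were mostly marked. Their list held 29 genes for factors that act before or beside POU proteins in sensory neurons, retina, hair cells, glia and hypothalamus, and for markers of these cells. Of these 29, 24 were marked, against 20.7% of all protein-coding genes, with a median summed length of 16.4 kb. Among the largest were Sox2 of neural progenitors (37.6 kb), Prdm12 of pain-sensing neurons (36.6 kb), Sim1 of the hypothalamus (29.6 kb) and Gfi1 of hair cells (28.0 kb). The start lay between peaks in 11 of the 24 and under a peak in another 11, against 17.5% and 21.5% of all marked genes. These shares depend on the number and width of peaks. They were 33.8% and 26.9% among marked genes with 2 or more peaks. Among those with a peak of 10 kb or more, as 12 of the linked genes had, they were 19.1% and 59.1%. The 5 without a peak were Nes, Avil, Sox10, Runx1 and Crh, whose nearest peaks lay 14.9, 29.5, 90.4, 94.9 and 517 kb away.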

How the data were processed

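The authors sequenced H3K27me3 ChIP DNA and input DNA of primary rib chondrocytes. Per the submitters' processing notes, reads were handled with CASAVA 1.8.4, Bowtie2 and MACS2 on mm10. Per the file headers, peaks were called by MACS 2.1.0.20140616 in broad mode on ChIP against input, with duplicates removed, a fragment length of 294 bp and a q-value cutoff of 0.05. The pileup is a deposited coverage signal per peak, and the fold enrichment is a deposited ratio of pileup plus 1 to local input background plus 1. Significance was deposited as the −log10 of the q-value, averaged across each peak, and single peaks can therefore average above 0.05. A matching column of p-values was deposited and was not used. The authors also deposited a table joining peaks to Ensembl genes within 5 kb (22857 lines), and the tool for this step was not given in the sources used here.

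Peaks were counted by name, and all 19359 had the same position, pileup and fold enrichment in both deposited tables. Joined symbols were split, and 4929 of 4987 symbols (98.8%) were matched to RefSeq genes of GRCm38.p6. Lengths were summed over the peaks of a gene. The gene start was taken from the deposited gene record and its strand, with the RefSeq start as an alternative. The background is the 21887 protein-coding RefSeq genes. Interval functions were tested on simulated data. Python 3.11.15 and pandas 2.3.3 were used.

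The members, the lists of other POU and linked genes, and the alternatives were chosen with earlier results of these data known. Named were all members, genes sharing their peaks, the 8 other POU genes and, of the linked genes, the 5 with the largest summed peak length and those that a small count needs. Some genes under this rule are not reported here. The motifs, the gaps at gene starts and the domains were chosen after the values were seen.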

Additional observations from a re-analysis of the deposited data

How the results depend on the processing

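Alternatives were computed 70 times over 9 results, 6 of them chosen after seeing the data, and 58 stayed within 1.5 times the reported value. No paired analysis was possible because the ChIP and the input were 1 library each, which also leaves no replicate to omit. A mean q-value no higher than 0.01 or a fold enrichment of at least 3.5 each kept 4 of the 7 members and lost Pou4f3. Both thresholds gave 28.7 kb of class IV peaks against 21.5 kb of class III peaks, 0 members with a covered start, 0 members with a start between peaks and 0 marked other POU genes. They gave 12 and 11 marked linked genes, respectively, as fewer peaks were left. An overlap with the gene body by 1 bp or by 500 bp gave 16.2 kb of class III peaks against 63.1 kb of class IV peaks, because the peaks before the starts and the Pou3f2 peak beyond the 3′ end no longer counted. With peaks within 2 kb instead of 5 kb, the start lay between peaks at 3 members. The number of marked members was 4 or 5, and class IV had the larger summed length, under each alternative run on them. The length-weighted pileup stayed between 12.06 and 12.66 in class III and between 12.28 and 12.78 in class IV. Regions with a pileup below 9.86 were never called at this depth.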
